A study of Mus musculus with 6 samples.

Results

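The mu-class glutathione transferases of the mouse, Gstm1 to Gstm7, were followed across the 6 endometrial libraries of the series. The 7 genes were taken by symbol from a table of 44788 genes, and all 7 were found. They had been picked for their behaviour in this same contrast, so the differences between the groups given for them are descriptions without a test. The data came from ICR mice, an outbred strain, in which adenomyosis (endometrial glands and stroma within the uterine muscle) had been induced in newborns by oral tamoxifen, 2.7 µmol/kg daily from day 2 to day 5 of life. After 75 days, 8 of 16 such females were injected intraperitoneally with Decapetyl, a gonadotropin-releasing hormone (GnRH) agonist, at 1.5 µg per 100 g of body weight per day on days 3 to 9 of estrus. The control group of 8 received the solvent alone. Mating followed after 4 weeks, and the endometrium was taken by scraping on day 4 of pregnancy. Tamoxifen was thus common to both groups, and a group without adenomyosis is not analysed here. There were 3 libraries with the agonist and 3 without it. Whether a library stands for 1 mouse or a pool is not stated by the labels, so SDs describe the spread between libraries, which may be technical in part.

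Glutathione transferases join the tripeptide glutathione to reactive, electrophilic compounds, which prepares them for export from the cell. The mu class is one of the cytosolic classes, and its enzymes work as dimers of like or unlike mu subunits. In rodents Gstm1 is a major liver form, and many mu-class genes respond to oxidants and foreign compounds through the transcription factor NRF2. In the mouse the genes sit side by side in 1 cluster, and most of them resemble each other closely in sequence.

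In the GENCODE M21 annotation of GRCm38 the cluster spanned chromosome 3, bases 107895821 to 108044894, a length of 149074 bases. Gstm5 lay first and on the plus strand, and Gstm7, Gstm6, Gstm3, Gstm2, Gstm1 and Gstm4 followed in that order on the minus strand. The gaps between neighbours ran from 7029 bases (Gstm7 to Gstm6) to 27647 bases (Gstm5 to Gstm7). The coding sequences of the 6 minus-strand members each had 657 bases, and that of Gstm5 had 675. Over the 21 pairs, coding identity ranged from 67.9% (Gstm3 and Gstm5) to 89.5% (Gstm1 and Gstm3). Gstm5 shared at most 71.0% with any other member, and Gstm2 with Gstm7 shared 84.9%.

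How much of a transcript a short read can place uniquely bears on every count below. The first stretch shown is the 75-base coding window in which Gstm1 differed least, on average, from its relatives of equal length, coding bases 163 to 237. Capitals mark bases that differ from Gstm1.
Gstm1: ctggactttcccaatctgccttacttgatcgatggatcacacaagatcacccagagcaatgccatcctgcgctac
Gstm2: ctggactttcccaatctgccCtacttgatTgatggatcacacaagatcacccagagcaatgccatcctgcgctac
Gstm7: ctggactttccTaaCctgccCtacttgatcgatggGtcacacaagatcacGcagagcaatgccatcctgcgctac

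A read that spans this whole window has 2 differences to tell Gstm2 from Gstm1 and 5 to tell Gstm7 from Gstm1. Gstm1 and Gstm2 share a run of 60 identical coding bases, so a shorter read may hold none. The second stretch, coding bases 580 to 654, is the window with the most differences on average. It is shown for Gstm1, for 3 members and for Gstm2-ps1, a row of the table annotated as a processed pseudogene on chromosome 5 (bases 116632908 to 116633564).
Gstm1: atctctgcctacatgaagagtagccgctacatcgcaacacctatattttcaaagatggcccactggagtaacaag
Gstm2-ps1: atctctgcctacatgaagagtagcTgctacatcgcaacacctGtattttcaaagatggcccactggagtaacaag
Gstm2: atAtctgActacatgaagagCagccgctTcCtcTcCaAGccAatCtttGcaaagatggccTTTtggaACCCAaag
Gstm3: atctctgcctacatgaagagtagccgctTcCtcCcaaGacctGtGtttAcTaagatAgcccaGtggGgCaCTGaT
Gstm7: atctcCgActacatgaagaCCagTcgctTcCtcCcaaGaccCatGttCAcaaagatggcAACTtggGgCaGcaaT

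Here Gstm2 differed from Gstm1 at 20 bases, Gstm3 at 16 and Gstm7 at 21, while Gstm2-ps1 differed at 2. Despite its symbol, Gstm2-ps1 was 97.9% identical to Gstm1 over 657 coding bases and 84.8% identical to Gstm2. Of all 100-base windows of the main Gstm1 transcript, 7.73% occurred letter for letter in a transcript of another gene, and of all 50-base windows 23.1%. For Gstm3 these shares were 13.8% and 28.8%, for Gstm6 2.47% and 11.8%, and for Gstm2 0.622% and 9.36%. Gstm4 and Gstm7 had 0 such windows of either length. Gstm5 shared 9.34% of its 100-base windows with the antisense transcript of 4933431E20Rik, which overlaps 178 of its exonic bases. No source used here gives the strand setting of the counting, and reads of that overlap cannot be assigned. The reference is of strain C57BL/6J, and ICR alleles may differ from it.

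Promoter windows from RefSeq (GRCm38.p6), 250 bases before to 50 after a start site, were searched on both strands for 4 motifs. All 7 members had at least 1 window, 12 in all. The core of the antioxidant response element, TGACNNNGC, through which NRF2 acts, was found in 2 of the 7 members, Gstm5 and Gstm7, against 14% of the 27025 genes with a window. By window, 2 of the 12 held it, against 12.4% of all 32851 windows. The core of the xenobiotic response element, GCGTG, bound by the aryl hydrocarbon receptor, was found in Gstm5 and Gstm1, against 35.2% of genes. By window, 3 of the 12 held this core, against 32.4% of all windows. The 2 windows of Gstm1 overlap, and the match in each is the same site. In Gstm5 one match to each overlaps the other. A pair of palindromes, each a half-site, 3 free bases and the half-site's reverse complement, were also searched. The estrogen response element (half-site GGTCA) and the glucocorticoid and progesterone response element (half-site AGAACA) were found in 0 members, and in 0.074% and 0.0111% of genes. A match is a run of letters, and no binding was measured. The windows of Gstm7 (chr3:107931565-107931864, minus strand, the second of its 2 starts) and Gstm5 (chr3:107895604-107895903, plus strand) are shown because these members carry the antioxidant core and, as described below, differed in how far their levels moved. Gstm2 (chr3:107986371-107986670, minus strand) is shown because its level followed that of Gstm7, and it holds neither core. Each runs 5′ to 3′ in the gene's direction, and capitals mark matches to either core.
Gstm7: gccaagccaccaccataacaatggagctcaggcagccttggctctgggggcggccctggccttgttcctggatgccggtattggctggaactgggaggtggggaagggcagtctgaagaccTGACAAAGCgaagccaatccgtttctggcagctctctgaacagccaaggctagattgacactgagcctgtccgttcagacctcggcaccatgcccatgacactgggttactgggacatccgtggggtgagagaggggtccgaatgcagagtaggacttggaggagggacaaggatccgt
Gstm5: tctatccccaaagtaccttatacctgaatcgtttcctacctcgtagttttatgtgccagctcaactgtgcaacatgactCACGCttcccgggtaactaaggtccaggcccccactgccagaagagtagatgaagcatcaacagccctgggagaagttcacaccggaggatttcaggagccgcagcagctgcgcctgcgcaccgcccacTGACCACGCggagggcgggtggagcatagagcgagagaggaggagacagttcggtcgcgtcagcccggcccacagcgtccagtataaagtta
Gstm2: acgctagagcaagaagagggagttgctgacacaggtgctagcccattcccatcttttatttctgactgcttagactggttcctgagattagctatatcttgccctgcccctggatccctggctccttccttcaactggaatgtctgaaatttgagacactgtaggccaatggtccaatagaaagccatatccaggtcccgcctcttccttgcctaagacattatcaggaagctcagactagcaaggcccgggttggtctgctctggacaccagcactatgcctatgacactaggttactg

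In Gstm7 the antioxidant core begins at position -129 from the start site of the window shown, and in Gstm5 at position -42. The window of the other Gstm7 start (chr3:107931768-107932067) holds no antioxidant core. In GENCODE the minus-strand Gstm7 gene begins at base 107931817, so its core lies inside the annotated gene and not upstream of it.

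Library totals ranged from 11720958 to 14104266 counts, and levels are CPM, that is, counts relative to a library size adjusted by TMM factors. A level of 0.203 to 0.275 CPM was worth 3 reads. The 18S ribosomal RNA row took 3.31% of the counts of no-agonist library 2 and 1.94% of agonist library 1, against 0.254 to 0.369% in the other 4. All 10 markers of epithelium and all 10 of endometrial stroma were detected, as were all 10 of smooth muscle. Across all genes, edgeR's quasi-likelihood test called 0 of 16581 genes at a Benjamini-Hochberg adjusted p of 0.05 (0%). With no adjustment, a p under 0.05 was reached by 691 genes toward higher levels with the agonist (4.17%) and by 844 toward lower levels (5.09%), together 9.26%. Limma-voom called 0 genes in either direction, DESeq2 called 139 toward higher and 251 toward lower levels, and the likelihood ratio test of edgeR called 104 and 164.

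Summed over the 7 rows, mu-class counts made up 315.9, 175.8 and 196.1 CPM in no-agonist libraries 1 to 3 and 301.3, 482.7 and 640.4 CPM in agonist libraries 1 to 3. The mean was 475 ± 170 CPM with the agonist and 229 ± 75.7 CPM without it (SD, n = 3 libraries per group, here and for every level below). The groups overlapped, because agonist library 1 lay just below no-agonist library 1. The fitted log2 fold change of the sum, agonist over no agonist, was 1.05 ± 0.35 (SE). This sum does not depend on how reads were split between the members. It would still miss reads with several matches that were dropped or counted in rows outside the 7. In endometrium scraped as bulk tissue, more cells that express a gene and more RNA per cell cannot be told apart.

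The members contributed unevenly to this difference. Of the 7 members, 6 had enough reads to be fitted, and all 6 had a log2 fold change above 0, as did 52.2% of all genes tested. In Gstm1 and Gstm6 alone did all 3 agonist libraries lie above all 3 others, an arrangement seen in 6.94% of genes tested, and the reverse arrangement, seen in 7.61% of genes, occurred in 0 members. Since the members were picked on this contrast, nothing is read from either count.

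**Figure D1:**
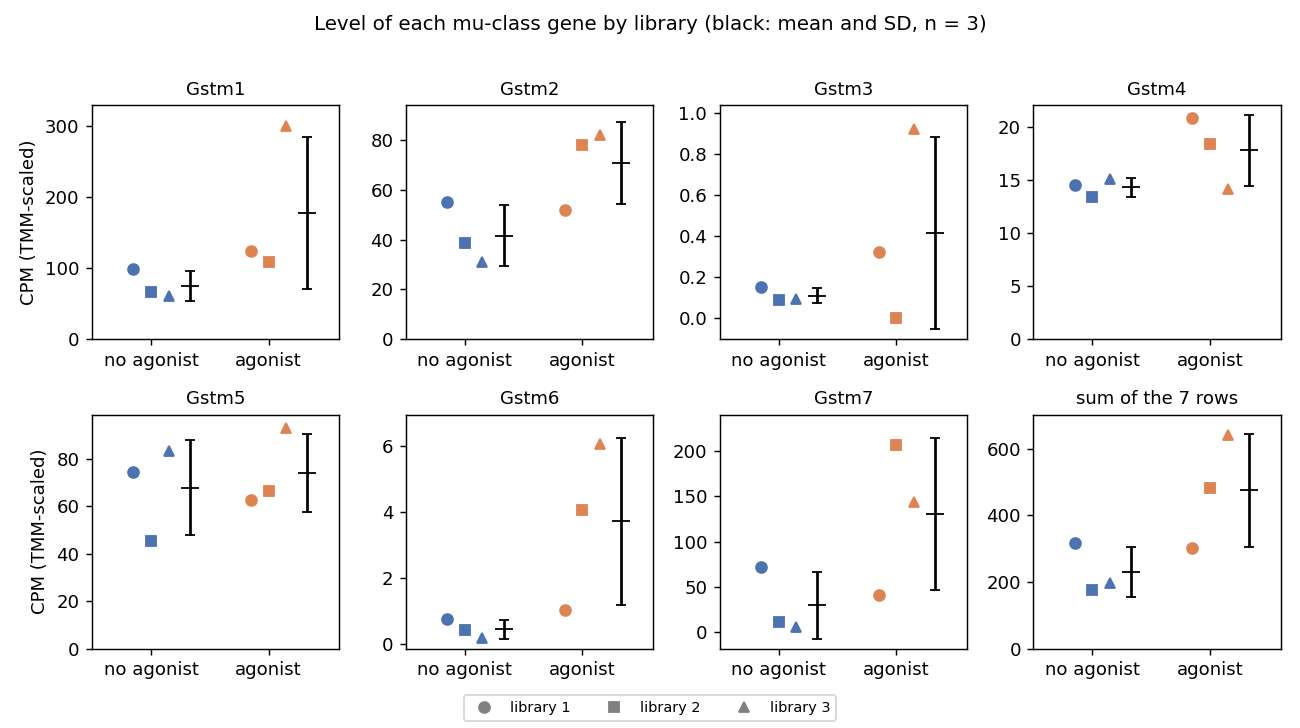
CPM of each mu-class gene and of their sum (vertical axes, each panel with its own scale) in the 3 libraries without and the 3 with the GnRH agonist; symbols mark libraries 1 to 3, black marks show the mean and SD. Gstm7 reached 206.8 CPM in agonist library 2 and was at 5.59 CPM in no-agonist library 3, while Gstm5 stayed between 45.5 and 93.0 CPM.

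Gstm1, the best known mu-class enzyme of mouse liver, measured 99.3, 66.0 and 60.9 CPM without the agonist and 123.5, 109.1 and 300.3 CPM with it. All 3 agonist libraries were higher, but library 3 stood far above the other two. The means were 178 ± 106 and 75.4 ± 20.9 CPM, a 2.36-fold difference, with a log2 fold change of 1.24 ± 0.42. Without agonist library 3 the log2 fold change was 0.63. The SD with the agonist was therefore set mainly by that 1 library.

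Gstm7 varied most among the abundant members. It measured 71.6, 11.6 and 5.59 CPM without the agonist and 41.1, 206.8 and 143.8 CPM with it. No-agonist library 1 lay above agonist library 1, so the groups overlapped, and within the group without agonist the highest and lowest libraries were far apart. The means were 131 ± 83.6 and 29.6 ± 36.5 CPM, a 4.41-fold difference, with a log2 fold change of 2.14 ± 0.96. Without no-agonist library 1 it was 3.92. No 50-base or 100-base window of its main transcript occurred in another gene's transcript, though it shared a run of 45 identical coding bases with Gstm4.

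Gstm2, another subunit of the cytosolic mu-class dimers, measured 55.0, 38.8 and 30.9 CPM without the agonist and 52.0, 78.1 and 82.2 CPM with it. Agonist library 1 again lay below no-agonist library 1, and agonist libraries 2 and 3 lay above all others. The means were 70.7 ± 16.4 and 41.6 ± 12.3 CPM, with a log2 fold change of 0.77 ± 0.28.

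Gstm6 was a low-count member, with 10, 5 and 2 reads without the agonist and 13, 60 and 79 reads with it. In CPM these were 0.753, 0.434 and 0.183 against 1.04, 4.07 and 6.07. The groups did not overlap, but agonist library 1 lay much nearer to the other group than to agonist libraries 2 and 3. Its log2 fold change of 2.98 ± 0.78 was the largest of the 6 fitted and rested on the fewest reads.

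Gstm4 measured 14.5, 13.4 and 15.1 CPM without the agonist and 20.8, 18.4 and 14.2 CPM with it. Agonist library 3, the highest library for Gstm1, lay below no-agonist libraries 1 and 3 here. The log2 fold change was 0.31 ± 0.25. Gstm5, the member most distant in sequence and known from brain and testis, measured 74.6, 45.5 and 83.4 CPM without the agonist and 62.5, 66.3 and 93.0 CPM with it. The groups were interleaved, and the log2 fold change of 0.12 ± 0.28 was smaller than its error. Without no-agonist library 2 it turned to -0.09, and without agonist library 3 to -0.07. Gstm3 had 2, 1 and 1 reads without the agonist and 4, 0 and 12 with it, too few to be fitted. The 0 reads in agonist library 2 allow up to 0.203 CPM.

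**Figure D2:**
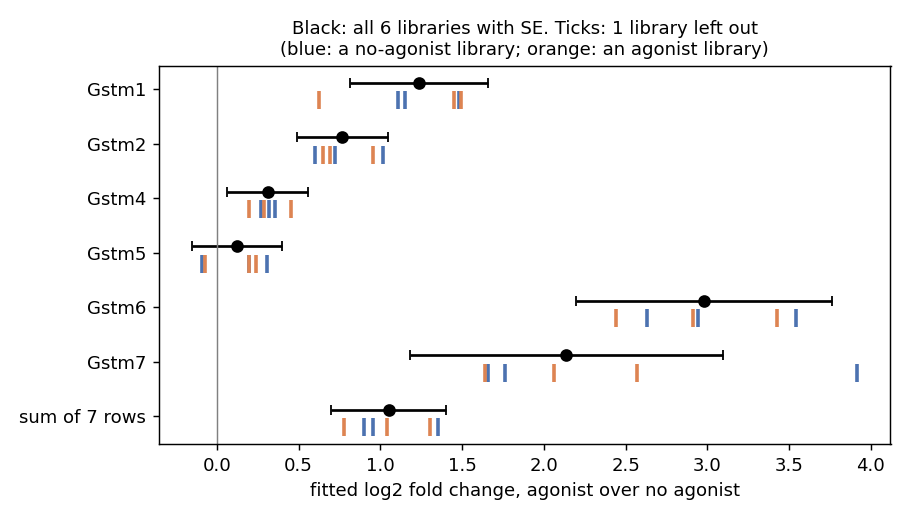
Fitted log2 fold change, agonist over no agonist (horizontal axis), for the 6 fitted members and the sum of the 7 rows; black points with bars are all 6 libraries with SE, and ticks are fits with 1 library left out (blue: a no-agonist library, orange: an agonist library). Gstm7 moved from 2.14 to 3.92 without no-agonist library 1, Gstm1 from 1.24 to 0.63 without agonist library 3, and Gstm5 lay on either side of 0.

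To compare genes with each other, CPM was divided by the length of the main annotated transcript in kilobases. Without the agonist the order of these per-length levels was Gstm5 at 71.8 ± 21.0, Gstm1 at 58.5 ± 16.2, Gstm2 at 39.1 ± 11.5 and Gstm7 at 21.5 ± 26.5 CPM per kb. The SDs of each of these neighbours overlapped. Gstm4 followed at 8.40 ± 0.522, and its 3 libraries (7.83 to 8.86 CPM per kb) fell within the range of Gstm7 (4.06 to 52.0). Gstm6 at 0.396 ± 0.248 and Gstm3 at 0.0837 ± 0.0271 CPM per kb were last, with no overlap between these neighbours. The lowest Gstm6 library (no-agonist 3) and the highest Gstm3 library (no-agonist 1) each held only 2 reads, so their order is uncertain. With the agonist the order was Gstm1 at 138 ± 82.6, Gstm7 at 94.8 ± 60.7, Gstm5 at 78.3 ± 17.6 and Gstm2 at 66.5 ± 15.4 CPM per kb, again with overlapping neighbours. Gstm4 was at 10.4 ± 1.96, Gstm6 at 3.23 ± 2.19 and Gstm3 at 0.316 ± 0.357 CPM per kb, each below every library of the member before it. With all annotated exons merged in place of the main transcript, the order of these first 4 was the same in both groups.

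The make-up of the family differed from library to library. Of the mu-class counts of no-agonist library 1, Gstm7 supplied 22.7% (exact binomial 95% interval 21.4 to 24.0%). It supplied 6.62% in no-agonist library 2 (5.57 to 7.79%) and 2.85% in no-agonist library 3 (2.19 to 3.65%). With the agonist it supplied 13.6% (12.6 to 14.8%), 42.8% (41.7 to 44.0%) and 22.5% (21.6 to 23.4%). Gstm5 ranged from 23.6 to 42.5% without the agonist and from 13.7 to 20.8% with it. Gstm1 took 31.4, 37.5 and 31.0% in the no-agonist libraries and 41.0, 22.6 and 46.9% in the agonist libraries, so its share was lowest and highest in agonist libraries 2 and 3. These intervals cover counting error only. The ratio of Gstm1 to Gstm7 counts ran from 0.528 in agonist library 2 to 10.9 in no-agonist library 3, a 20.6-fold range, and that of Gstm4 to Gstm5 counts spanned 2.18-fold.

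**Figure D3:**
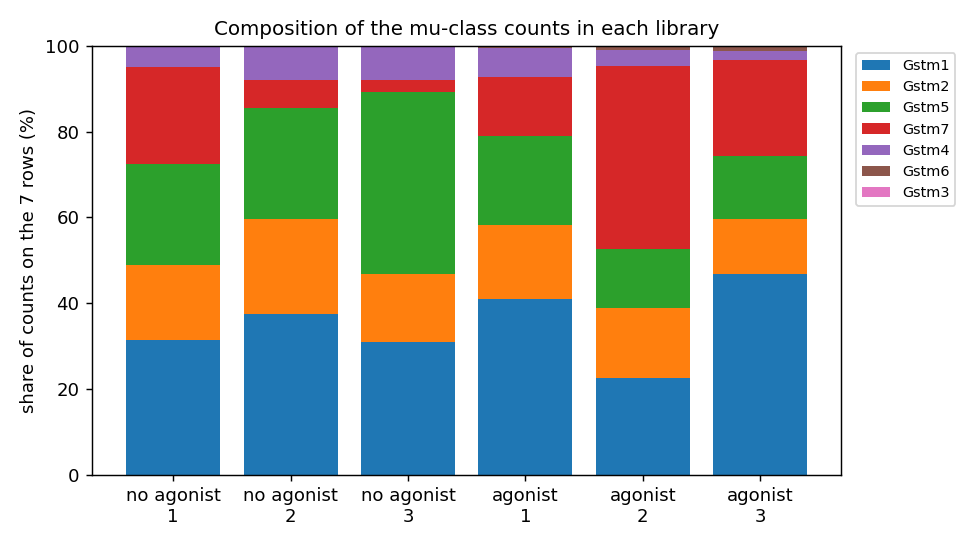
Share of the counts on the 7 mu-class rows (vertical axis, percent) taken by each gene in each library. Gstm7 takes 42.8% in agonist library 2 and 2.85% in no-agonist library 3, and Gstm5 takes its largest share, 42.5%, in no-agonist library 3.

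Likeness between patterns was measured as Pearson's r of log2 CPM over the 6 libraries. It is given as a description, since 6 points in 2 groups share their treatment and depth. Gstm2 and Gstm7 had r = 0.98, Gstm2 and Gstm6 0.97, and Gstm6 and Gstm7 0.92. Gstm1 had 0.83 with Gstm2 and 0.74 with Gstm7. Gstm4 had at most 0.30 with any other member, and Gstm5 at most 0.53. Gstm1 and Gstm4, which are neighbours in the cluster, had r = 0.09.

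Of the rows outside the cluster that share its sequence, 3 were compared with the members. Gstm2-ps1 measured 17.9, 13.3 and 11.9 CPM without the agonist and 19.7, 18.8 and 47.4 CPM with it. Of 12873 genes its r with Gstm1, 0.99, ranked 1, whereas its r with Gstm2, after which it is named, was 0.81. Its counts were 15.8 to 20.1% of those of Gstm1 in the 6 libraries, a 1.27-fold range, and 24.1 to 57.8% of those of Gstm2. Gm8834, a processed pseudogene on chromosome 10 (bases 34898256 to 34898820), was 97.9% identical to Gstm3 over 567 aligned bases and 89.8% to Gstm1. It had 375 reads where Gstm3 had 20, and its counts were 3.17 to 4.55% of those of Gstm1 (r = 0.97). Gm6665, annotated as protein-coding, matched Gstm2 over 145 bases at 97.9% identity, and its counts were 52.2 to 72.7% of those of Gstm2 (r = 0.98). It had r = 0.97 with Gstm7 and 0.94 with Gstm6 too. How reads with several possible origins were counted is not given in the sources used here. With these 3 rows added to the 7, the log2 fold change of the sum was 1.03 ± 0.35.

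**Figure D4:**
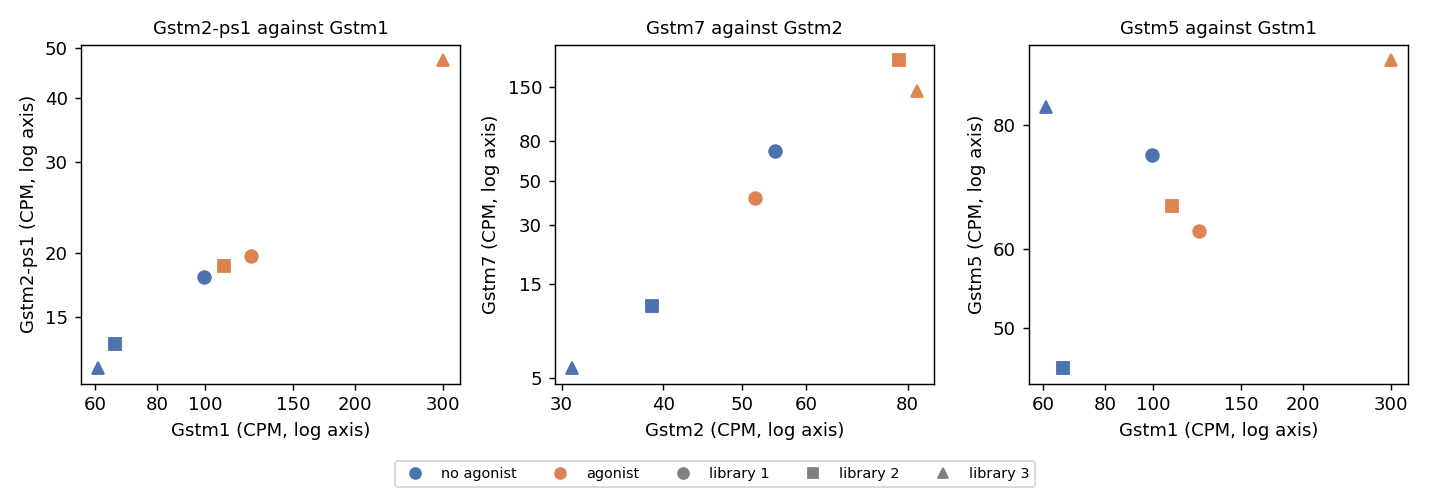
Level of one row against another in CPM (both axes logarithmic) in the 6 libraries, coloured by group with symbols for libraries 1 to 3. Gstm2-ps1 follows Gstm1 (r = 0.99) and Gstm7 follows Gstm2 (r = 0.98), while Gstm5 against Gstm1 (r = 0.53) shows no such line.

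By the same measure, the 5 genes most like the sum of the 7 rows, among 12868 with a mean of at least 5 CPM, were Tspan5, Kctd6, Gpt2, Fut10 and Gstz1, with r from 0.987 to 0.996. Gstz1, the zeta-class glutathione transferase of tyrosine breakdown, measured 65.4, 53.0 and 50.04 CPM without the agonist and 68.0, 84.6 and 99.8 CPM with it. The 5 least alike were Ckmt1, Rfx1, Acaa1b, Pkp3 and Pafah1b3, each with r = -0.99. In all, 263 genes exceeded r = 0.9. Ckmt1, a mitochondrial creatine kinase, lay between 62.3 and 186.6 CPM in the agonist libraries and between 173.7 and 423.0 CPM in the others. When the rule was applied to each member, a step chosen after the values were seen, the genes most like Gstm7 were Ets1, Kit, Tctn3, Mark1 and Ihh. Ihh, the epithelial hedgehog ligand of the uterus, measured 7.68, 1.91 and 0.550 CPM without the agonist and 3.76, 27.9 and 18.9 CPM with it (r = 0.99 with Gstm7).

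Sums of cell type markers were set beside the mu-class sum. The 10 epithelial markers summed to 8177 to 13085 CPM without the agonist and 4525 to 6804 CPM with it, and all 10 had log2 fold changes below 0. The 8 endothelial markers summed to 258 to 351 CPM without and 382 to 522 CPM with the agonist, all 8 above 0. For 9 leukocyte markers the range was 275 to 566 CPM without and 86.2 to 173 CPM with it, with 5 above and 4 below 0. The integrin Itgam supplied most of this sum, at 346, 223 and 454 CPM without and 97.2, 25.1 and 14.97 CPM with the agonist. The other 8 leukocyte markers summed to 162, 52.3 and 111 CPM without and 76.2, 67.7 and 71.3 CPM with it, and overlapped. Without their most abundant member, the epithelial and endothelial sums were still separated. The 10 stromal markers overlapped (3202 to 4807 against 3399 to 3736 CPM), as did the 10 of smooth muscle (8534 to 21333 against 3448 to 13231 CPM), 10 of which lay below 0. The 6 fat cell markers summed to between 1.49 and 409 CPM in the agonist libraries and between 2.34 and 325 CPM in the others. The 8 gland markers overlapped in their sum, most of which was Prom1 (233.8 to 874.0 CPM without and 113.6 to 448.7 CPM with the agonist), and 3 of the 4 tested lay above 0. The gland chemokine Cxcl15 measured 0.753, 1.04 and 0 CPM without the agonist and 1.36, 82.0 and 69.6 CPM with it, and Aldh1a1, a retinoic acid-making enzyme, 13.1, 25.1 and 10.8 against 8.65, 71.8 and 89.98 CPM. Both were high in agonist libraries 2 and 3, the libraries in which Gstm2, Gstm6 and Gstm7 were highest. The other tested gland markers did not share this pattern. Foxa2 measured 12.4, 18.5 and 10.7 CPM without and 7.85, 15.2 and 20.5 CPM with the agonist (log2 fold change 0.07 ± 0.40). Prom1 had a log2 fold change of -0.82 ± 0.59. Prss28, Prss29, Spink3 and Ttr had too few reads to be fitted. Sums of red blood cell (6), mesothelium (5) and ovary and oviduct (8) markers overlapped between the groups too. The ovary and oviduct sum was 7.15 to 23.9 CPM without the agonist and 194, 19.9 and 10.3 CPM with it. Of this list, Ovgp1 measured 1.2, 2.6 and 2.93 CPM without and 172.7, 14.2 and 3.84 CPM with the agonist, and its groups did not overlap. The other 7 summed to 21.4 CPM in agonist library 1 and overlapped. The steroidogenic Cyp11a1 and the receptor gene Fshr had 0 reads. Over the 6 libraries, r between the log2 marker sum and the log2 mu-class sum was -0.98 for epithelium, -0.78 for smooth muscle and -0.78 for leukocytes. It was -0.48 for glands, -0.10 for ovary and oviduct, 0.12 for stroma and 0.20 for fat cells. For mesothelium it was 0.43, for red blood cells 0.46 and for endothelium 0.68. The part of the marker differences in the mu-class levels was not tested.

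Genes beside the cluster were compared with the same fit across all genes. Before it, Ahcyl1 stood at 160 ± 21.3 CPM with and 166 ± 26.8 CPM without the agonist (log2 fold change -0.06 ± 0.21, edgeR adjusted p = 0.966), and the values that follow keep this order. Csf1, the macrophage growth factor, measured 17.5 ± 9.89 against 21.8 ± 12.1 CPM (adjusted p = 0.908). Eps8l3, only 2921 bases from Gstm5, had 18 reads in all and was not tested. After it, Ampd2 measured 56.9 ± 2.05 against 59.7 ± 23.3 CPM (adjusted p = 0.974), Gnat2 0.954 ± 0.580 against 0.633 ± 0.575 CPM (adjusted p = 0.886) and Gnai3 100.5 ± 17.4 against 91.4 ± 1.56 CPM (adjusted p = 0.884). None of the 5 tested neighbours passed the threshold.

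The other genes of glutathione chemistry were grouped by function into 6 lists and read from the same fit. Of these lists, none had a member past an adjusted p of 0.05 in either direction, where 0% of all genes passed. Among the other glutathione transferases, 8 of 15 tested had log2 fold changes above 0 and 7 below, with a median of 0.01 against 0.02 for all 16581 genes. With no adjustment, 3 of the higher and 2 of the lower ones had a p under 0.05, against 4.17% and 5.09% of all genes. Mgst3, a microsomal transferase, measured 39.1 ± 9.29 against 86.4 ± 7.55 CPM, lower in 3 of 3 agonist libraries (log2 fold change -1.14 ± 0.23, edgeR adjusted p = 0.252, 0.00379 with DESeq2 to 0.557 over its alternatives). The alpha-class Gsta4, which conjugates the lipid peroxidation product 4-hydroxynonenal, measured 71.4 ± 11.5 against 35.8 ± 7.65 CPM, higher in 3 of 3 (log2 fold change 0.99 ± 0.22, adjusted p = 0.278, 0.0214 with DESeq2 to 0.665). Gsto1, an omega-class enzyme, measured 914 ± 290.0 against 1789 ± 514 CPM (adjusted p = 0.456). The pi-class Gstp1 measured 139 ± 41.5 against 139 ± 76.6 CPM.

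Enzymes that make and recycle glutathione were split, with 11 of 19 above 0 and 8 below (median 0.16), and an unadjusted p under 0.05 for 3 of the former and 1 of the latter (4.17% and 5.09% of all genes). Gclc, the catalytic subunit of the rate-limiting synthetic enzyme, measured 82.2 ± 23.9 against 51.4 ± 8.82 CPM (log2 fold change 0.68 ± 0.26, edgeR adjusted p = 0.503), and its modifier subunit Gclm 35.7 ± 7.70 against 31.9 ± 4.71 CPM (adjusted p = 0.884). Glutathione reductase, Gsr, measured 141 ± 45.9 against 152 ± 45.5 CPM (adjusted p = 0.958). Of the gamma-glutamyltransferases, which open extracellular glutathione and its conjugates, Ggt5 measured 49.5 ± 3.09 against 92.0 ± 12.9 CPM, lower in 3 of 3 (log2 fold change -0.89 ± 0.18, adjusted p = 0.254, 0.00545 with DESeq2 to 0.597 over its alternatives). Its relative Ggt6 measured 3.79 ± 2.71 against 0.599 ± 0.198 CPM, higher in 3 of 3 (adjusted p = 0.310, 0.0215 with edgeR's likelihood ratio test to 0.653).

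The export pumps were the list with the largest median. All 7 tested had log2 fold changes above 0, with a median of 1.20 against 0.02 for all genes, and 4 were higher at an unadjusted p under 0.05 (4.17% of all genes), all 4 with separated groups (6.94% of all genes). Abcc4, a pump for glutathione conjugates and prostaglandins, measured 61.2 ± 29.4 against 19.7 ± 7.64 CPM (log2 fold change 1.64 ± 0.43, edgeR adjusted p = 0.329, 0.0214 with DESeq2 to 0.704 over its alternatives). Abcg2, a multidrug pump, measured 15.7, 11.03 and 15.3 CPM without and 20.3, 33.3 and 42.9 CPM with the agonist (log2 fold change 1.20 ± 0.32, adjusted p = 0.329, 0.0453 with DESeq2 to 0.740). Abcc3 measured 52.8 ± 15.3 against 19.3 ± 11.9 CPM (adjusted p = 0.395) and Abcb1a 22.0 ± 11.5 against 9.47 ± 2.63 CPM (adjusted p = 0.433). In Abcc3 and Abcb1a, as in Gstm2, agonist library 1 was close to no-agonist library 1, at 35.1 against 32.7 CPM and 12.8 against 12.4 CPM. Abcc1, the classic conjugate exporter, added after its values were seen, measured 90.7 ± 19.7 against 75.1 ± 7.93 CPM (adjusted p = 0.754).

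Of the NRF2 pathway's regulators, 1 of 8 had a log2 fold change above 0 and 7 below (median -0.18), and of its targets outside glutathione metabolism 5 of 16 lay above 0 and 11 below (median -0.34). At an unadjusted edgeR p under 0.05, 0 regulators and 0 targets were higher (4.17% of all genes). By the same threshold 1 regulator and 3 targets were lower (5.09% of all genes). Groups separated toward lower levels in 1 regulator and 3 targets (7.61% of all genes). NRF2 itself (Nfe2l2) measured 191 ± 27.5 against 208 ± 64.6 CPM (edgeR adjusted p = 0.929) and its inhibitor Keap1 86.4 ± 7.52 against 98.7 ± 7.10 CPM (adjusted p = 0.795). The small MAF partner Maff measured 3.64 ± 1.22 against 9.97 ± 3.90 CPM, lower in 3 of 3 (log2 fold change -1.45 ± 0.42, adjusted p = 0.361). Of the targets, the quinone reductase Nqo1 measured 6.19 ± 2.56 against 9.64 ± 3.91 CPM (adjusted p = 0.730) and heme oxygenase Hmox1 19.2 ± 2.64 against 24.0 ± 3.79 CPM (adjusted p = 0.738). The NADPH-producing Me1 measured 33.1 ± 12.2 against 62.9 ± 6.53 CPM (adjusted p = 0.403) and sulfiredoxin Srxn1 31.1 ± 8.84 against 52.0 ± 7.52 CPM (adjusted p = 0.441), both lower in 3 of 3. Pgd, lower in 3 of 3 too, measured 188 ± 32.5 against 280 ± 62.1 CPM (edgeR adjusted p = 0.535). In the list of the aryl hydrocarbon receptor 4 of 6 lay above 0 and 2 below, with 0 at an unadjusted p under 0.05 and a smallest edgeR adjusted p of 0.770. The receptor, Ahr, measured 22.6 ± 8.55 against 20.8 ± 1.13 CPM.

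**Figure D5:**
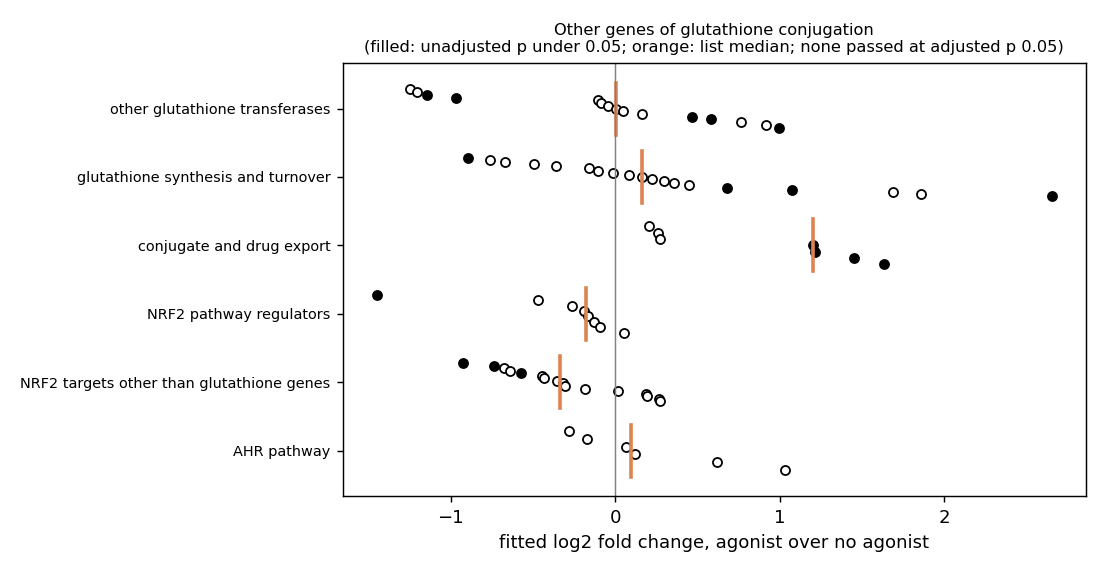
Fitted log2 fold change, agonist over no agonist (horizontal axis), of each tested gene in 6 lists of glutathione chemistry; filled points have an unadjusted p under 0.05 and orange bars mark list medians. The 7 export pumps all lie above 0 (median 1.20), and the NRF2 targets have a median of -0.34.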

How the data were processed

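The values are the authors' deposited read counts per gene symbol, 1 column per library, with no normalization recorded. Per the labels' protocols, total RNA was made into libraries with an Ion Total RNA-Seq Kit and read single-end by Ion Proton. The genome was mm10 (GRCm38) and the counter HTSeq 0.6.1, per the submitters' processing notes. Aligner, annotation, strand setting and treatment of reads with several matches: not given in the sources used here. Counts were filtered with filterByExpr, scaled with TMM factors and fitted by edgeR's quasi-likelihood test (R 4.3.3, edgeR 4.0.16), with Benjamini-Hochberg adjustment over 16581 genes. SEs were derived from the log2 fold change and the F statistic. DESeq2 1.42.0, limma 3.58.1 and edgeR's likelihood ratio test were alternatives. Log2 CPM used a prior count of 2. Simulated data with known changes served to check the fit. The members and lists were chosen with earlier results of these data known. Named genes were the 7 members, up to 4 genes of each list with the smallest p and its best known genes, the 5 most and 5 least like the family sum, and the cluster's neighbours. Libraries are numbered in the order of the labels, which give no pairing and no batch.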

Additional observations from a re-analysis of the deposited data

How the results depend on the processing

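The log2 fold change of the mu-class sum stayed above 0 in all 15 alternatives, between 0.78 and 1.35, both reached by leaving out 1 library (agonist 3 and no-agonist 1). Leaving out both libraries with a high 18S share, chosen after seeing the data, gave 1.14. The counts of genes called depended on the tool and filter. DESeq2 called 139 genes higher and 251 lower, the likelihood ratio test 104 and 164, and the test without a filter on low counts 8 and 28. Leaving out 1 library gave 0 to 0 genes higher and 0 to 1 lower, and 528 to 888 higher and 535 to 1093 lower at an unadjusted p under 0.05. With library totals alone these became 1188 and 521, where the log2 median over all genes was 0.18 in place of 0.02. Without a filter, 1054 were higher. The cause was not tested. Signs turned for 7 pathway genes. With library totals alone Nfe2l2 was at 0.0559 and Gsr at 0.0623, and without a filter Gstp1 at -0.0016. With 1 library left out, Nfe2l2 ran from -0.30 to 0.15, Gsr from -0.36 to 0.16, Gstp1 from -0.30 to 0.52, Gclm from -0.0262 to 0.29, Ahr from -0.23 to 0.28, Ahrr from -0.55 to 1.69 and Cyp1a1 from -0.70 to 0.0606. Leaving out no-agonist library 2 or agonist library 3 put Gstm5 below 0. Gstm3 and Gstm6 are limited by their counts.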
